A study of Rattus norvegicus with 23 samples.

Results

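Transcript levels in gastrocnemius muscle were compared between female Wistar rats coded for a high-fat, high-sugar (HFHS) diet and female rats coded for chow. The members are the 11 libraries whose column code carries F, of 23 in the series: 6 coded HFHS (rats 201, 202, 209, 210, 224 and 225) and 5 coded CHOW (rats 205, 213, 214, 228 and 229), with 1 poly-A selected library per rat. Rats began their diets at 4 weeks of age and stayed on them for 14 weeks, and were fasted for 2 h before tissue was taken. At the age of 12 weeks the females had their ovaries removed and were then given estradiol in the drinking water, except for a sham-operated subset. Which rat had which operation is not in the labels, so all 11 enter as females of the 2 diets. The 12 male libraries (6 per diet) serve only for a shared estimate of the spread and for the test of a difference between the sexes.

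A diet rich in fat raises the supply of fatty acids to muscle. Fatty acids bind PPAR nuclear receptors, which switch on genes for fatty acid uptake, storage in lipid droplets and oxidation in mitochondria, while sterol and fatty acid synthesis is controlled by SREBP and LXR. Another diet-responsive system is the aryl hydrocarbon receptor (AhR), a transcription factor activated by plant compounds, tryptophan metabolites and many foreign chemicals. Its best known target is Cyp1a1, a cytochrome P450 that oxidizes such compounds and draws its electrons from the P450 oxidoreductase, Por.

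Diet is taken from the column code, and in 3 rats the title and the treatment field say the opposite: 205 is coded CHOW but titled HFHS, and 224 and 225 are coded HFHS but titled chow. Results are therefore given for all 11 females and for the 8 rats without these 3 (4 per diet). Total counts were 29337432 to 51305339 on chow and 21152241 to 44633229 on HFHS (exact permutation test of the means, two-sided p = 0.19, n = 5 and 6). In all 11 libraries skeletal muscle genes dominated, with Myh2 or Acta1 the most abundant gene and 171400 to 215100 summed CPM, which are counts scaled to a common library size, over 9 defining muscle genes. Libraries stood apart in 2 ways that do not follow diet alone. The summed level of 36 hepatocyte genes, among them albumin, was 336.9 to 636.9 CPM in the 5 chow rats and 340.4 to 548.6 in HFHS rats 201, 210 and 224, but 70.5 to 117.8 in HFHS rats 202, 209 and 225. The first principal component over 500 genes (51.6% of their variance) ran between these libraries. Rat 205 was set apart on the second (14.2%): its 19 slow fiber genes summed to 9955 CPM against 26050 to 37540 in the other 10 females, and its erythrocyte, macrophage, mast cell and fibroblast markers were the lowest of all 11. In bulk muscle, a change in the number of cells or fibers of a type and a change in RNA per cell cannot be told apart. Results were also computed without rat 205 and with a covariate for the hepatocyte level.

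**Figure D1:**
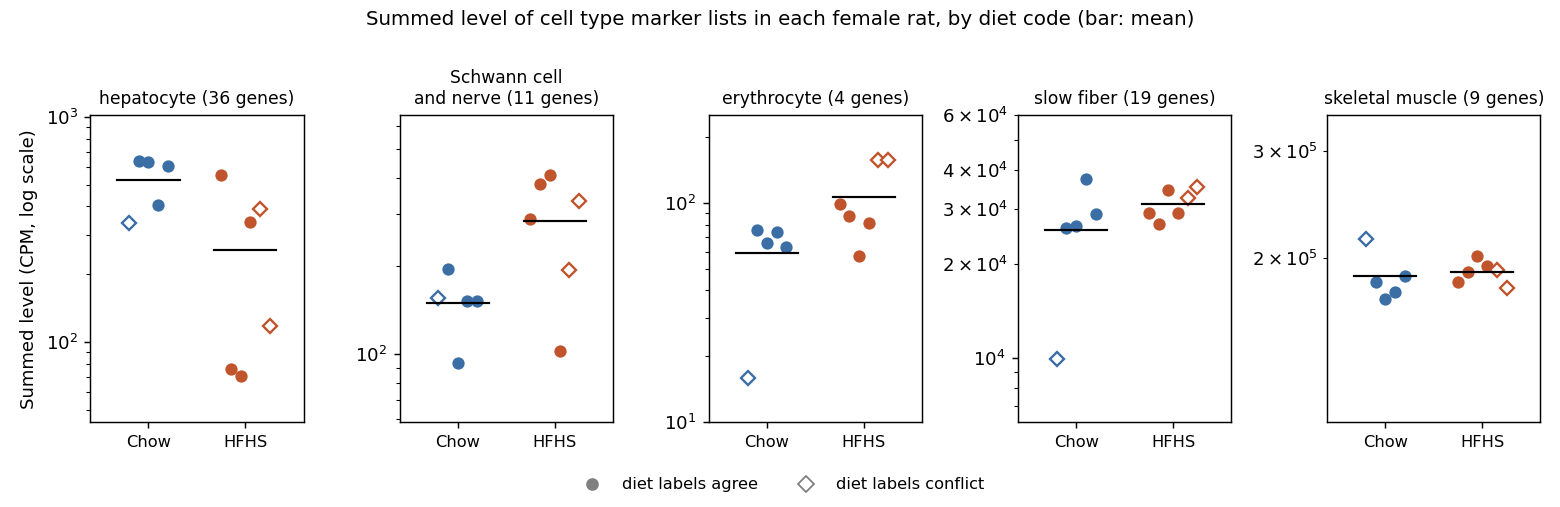
Summed level of cell type marker lists in each female rat (CPM, log scale), chow in blue and HFHS in orange; each point is 1 rat, the bar is the group mean, and open diamonds mark the 3 rats whose diet labels conflict. Hepatocyte genes are low in 3 of 6 HFHS rats, slow fiber and erythrocyte genes are lowest in chow rat 205 (9955 and 15.97 CPM), and muscle genes differ little among the rats.

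Of 13365 genes tested, 2 passed in edgeR at a Benjamini-Hochberg adjusted p under 0.05 (0.0150%), both higher on HFHS, and 0 passed in the other direction. DESeq2 on the same rats called 3 higher and 3 lower, and limma-voom called 3 and 10. The lower genes of limma-voom included the hepatocyte markers Itih3, Hp and Cyp2a1. At an unadjusted p under 0.05 there were 397 genes higher (2.97%) and 533 lower (3.99%) on HFHS. Differences are given as log2 of HFHS over chow from that fit, with their standard errors, and an adjusted p is one corrected over all genes tested.

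Cyp1a1 (chromosome 8, 62472095 to 62478147, rn6) had 0 counts in each of the 5 chow rats, rat 205 included. It had 75, 12, 75 and 66 counts in HFHS rats 201, 202, 209 and 210, and 32 and 156 counts in rats 224 and 225. Every HFHS-coded rat thus had reads and no chow-coded rat did. The HFHS level ran from 0.425 CPM in rat 202 to 3.49 CPM in rat 225, with a median of 2.04. Taking 3 counts summed over the 5 chow libraries as the floor, the HFHS mean was at least 138-fold higher, and even the lowest HFHS rat was at 28.8 times that floor (adjusted p = 0.00218 from edgeR). In an edgeR fit of the 11 females alone, which has fewer rats to estimate the spread, the adjusted p was 0.37. DESeq2 on the same 11 females gave an adjusted p of 1.76e-13. Without the 3 rats with conflicting labels the difference still passed in edgeR (adjusted p = 0.00922), but not in limma-voom, and with the diets of the sample titles it did not (log2 1.03, adjusted p = 0.7). Its level in muscle was low even on HFHS.

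Por (chromosome 12, 23998411 to 24046814) was at 28.1, 31.0, 31.2, 30.4 and 35.7 CPM in chow rats 205, 213, 214, 228 and 229. On HFHS it ran from 36.5 CPM in rat 210 to 45.9 in rat 224, with a median of 41.6. The groups did not overlap, although the highest chow rat and the lowest HFHS rat were close. Por thus rose, with a mean of 31.3 ± 2.77 CPM on chow (SD, n = 5) and 41.9 ± 3.52 CPM on HFHS (SD, n = 6). The log2 difference was 0.42 with a standard error of 0.07 (adjusted p = 0.0481 from edgeR). This call sat just inside the threshold: without the 3 rats its log2 was 0.36 with an adjusted p of 0.301, and with the hepatocyte level as a covariate 0.40 with an adjusted p of 0.501. The adjusted p of Por was also 0.0912 to 0.248 when any 1 of rats 201, 202, 205, 209, 213, 214, 224, 225 or 228 was left out, and 0.0176 and 0.0156 without rats 210 and 229. With the title diets its log2 was 0.105 (adjusted p = 0.71). The call also ended in the females alone (0.397), with RLE scaling (0.0613), with other filters (0.0742 and 0.0596) and with a replicate block (0.221), while DESeq2 and limma-voom made it.

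The AhR and its partner bind DNA at sites with the core letters GCGTG, and the sequence before the start of Por is shown because Por was 1 of the 2 genes that passed. The RefSeq promoter table matched 1 of the 2, Por. The run gives the 250 bases before the RefSeq start site of Por (GRCr8, chr12:26635810-26636059, minus strand), a build other than the rn6 of the counts. Capitals mark GCGTG or its complement CACGC:
Por: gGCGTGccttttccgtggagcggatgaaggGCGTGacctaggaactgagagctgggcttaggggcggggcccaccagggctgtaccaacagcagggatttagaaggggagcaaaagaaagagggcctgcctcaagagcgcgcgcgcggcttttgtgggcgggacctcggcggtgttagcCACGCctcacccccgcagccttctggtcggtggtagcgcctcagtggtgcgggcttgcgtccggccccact
The 3 matches begin at positions -249, -220 and -71 from the start site. Of 33469 rat promoters in the same table, 25.9% hold at least 1 match in their 250 bases, so a match is common and is given as a description only.

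Other genes of the AhR response were not called. Of 8 tested AhR targets, 1 passed, Cyp1a1 itself, and the median log2 over the list was 0.04 against -0.001 over all genes. Cyp1b1, another P450 induced by the receptor, averaged 1.84 ± 0.703 CPM on chow and 1.47 ± 0.605 on HFHS (log2 -0.34, adjusted p = 0.88). Nqo1, a quinone reductase under the control of both AhR and NRF2, had log2 0.16 (adjusted p = 0.87), and Ahr itself log2 0.12 (adjusted p = 0.93). Cyp1a2, a P450 mainly of liver, had log2 -0.99 (adjusted p = 0.80), and its level followed the hepatocyte genes: with their level as a covariate its log2 was 0.73. Among 9 microsomal electron donors and enzymes, Por was the 1 member that passed. The other electron carriers were close to even between the diets, with log2 -0.13 for Cyb5a and -0.08 for Cyb5b, the microsomal and mitochondrial forms of cytochrome b5.

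**Figure D2:**
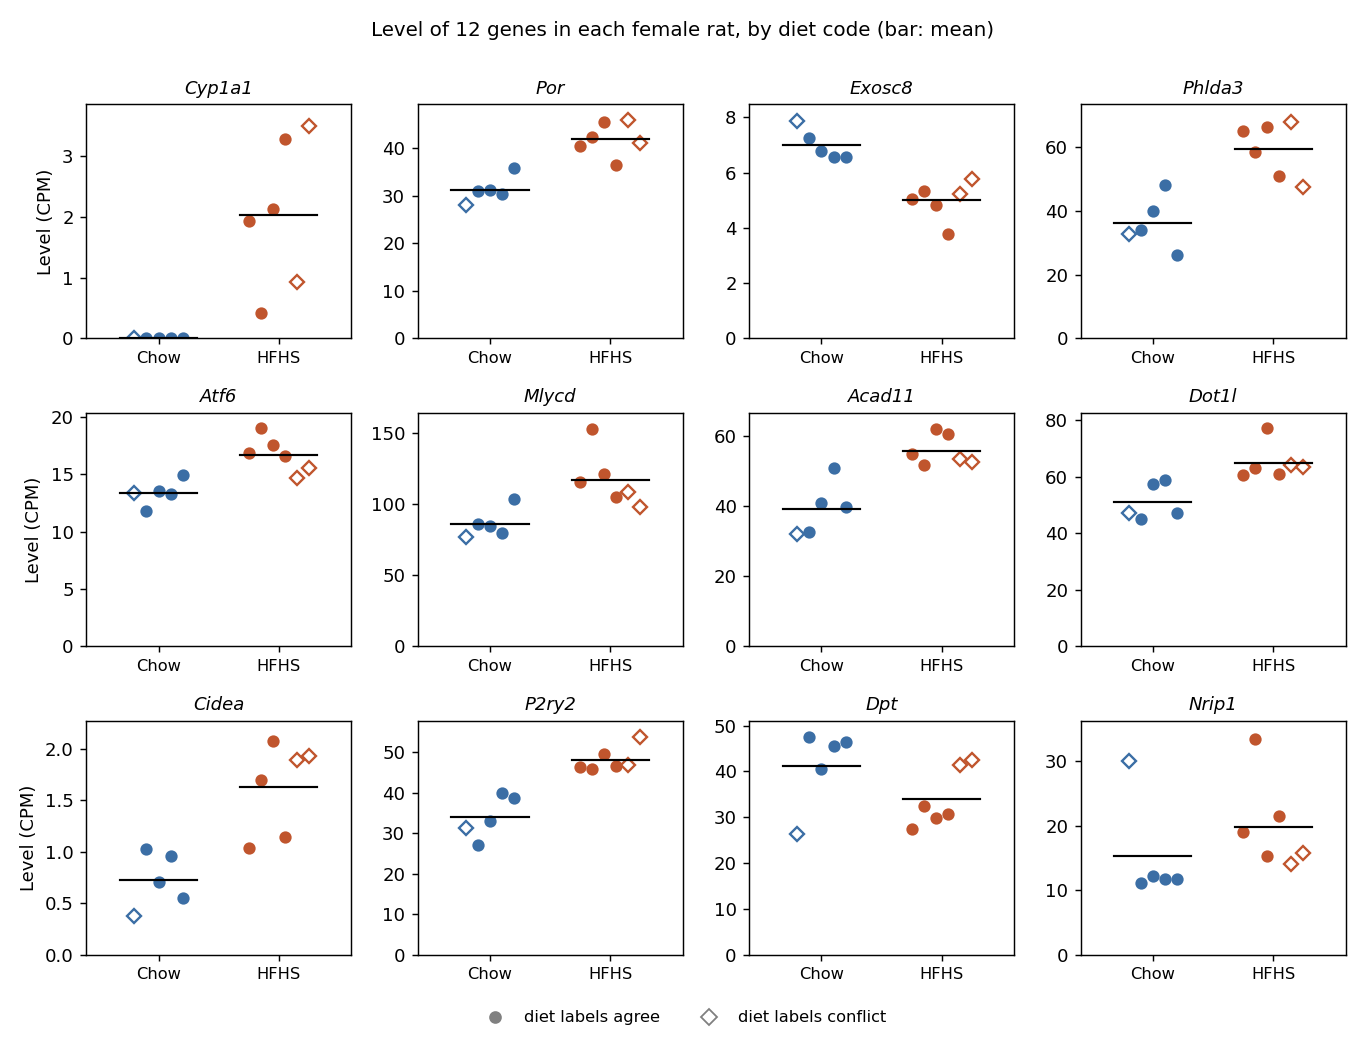
Level (CPM) of 12 named genes in each of the 11 female rats by diet code; each point is 1 rat, the bar is the group mean, and open diamonds mark rats 205, 224 and 225. Cyp1a1 is at 0 in all 5 chow rats, the groups do not overlap for Por, Exosc8, Acad11, Dot1l, Cidea and P2ry2, for Dpt the 3 open diamonds lie among the rats of the other diet, and for Nrip1 rat 205 lies apart from the other chow rats.

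Below the threshold, the genes with the smallest p that were higher on HFHS included several of fuel use. None of the 13 genes that follow Cyp1a1 and Por in that direction passed in edgeR (adjusted p = 0.471 to 0.603), so their values are given without a call. DESeq2 called Phlda3 on all rats (adjusted p = 0.0258). On the females alone, where it called 17 genes (0.111%), it also called Phlda3 and P2ry2 (both 0.00394), Acad11 (0.0273) and Cidea (0.0394). Phlda3, a p53 target that restrains Akt signaling, was at 32.9, 34.0, 39.9, 48.3 and 26.1 CPM in chow rats 205, 213, 214, 228 and 229. On HFHS its lowest, median and highest levels were 47.5, 61.9 and 67.9 CPM, and 5 of 6 HFHS rats lay above every chow rat (log2 0.72, standard error 0.16). Mlycd encodes malonyl-CoA decarboxylase, which removes the inhibitor of fatty acid entry into mitochondria. It averaged 86.1 ± 10.6 CPM on chow and 117 ± 19.4 on HFHS (log2 0.44, standard error 0.11), again with 5 of 6 HFHS rats above all chow rats. Acad11, an acyl-CoA dehydrogenase for long chains, had 32.1, 32.6, 40.98, 50.98 and 39.8 CPM in the chow rats and 51.7, 54.15 and 62.1 (lowest, median, highest) on HFHS. Its groups did not overlap, by a margin of under 1 CPM (log2 0.51, standard error 0.13).

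Cidea, a protein that enlarges lipid droplets, averaged 0.720 ± 0.272 CPM on chow and 1.63 ± 0.437 on HFHS (log2 1.18, standard error 0.32). All 6 HFHS rats lay above the highest chow rat, but rat 201 at 1.032 CPM only just exceeded rat 213 at 1.025. Mlxipl, the carbohydrate-sensing transcription factor ChREBP, had log2 0.33, and Agpat3, an acyltransferase of phospholipid and triglyceride synthesis, log2 0.22. Atf6, a sensor of misfolded protein in the endoplasmic reticulum, averaged 13.4 ± 1.13 CPM on chow and 16.7 ± 1.52 on HFHS (log2 0.32), with 5 of 6 HFHS rats above every chow rat. P2ry2, a receptor for extracellular ATP and UTP, had 27.05 to 39.8 CPM on chow and 45.8 to 53.7 on HFHS, with no overlap (log2 0.50). The chromatin enzymes Dot1l, a histone H3 lysine methyltransferase, and Tet2, which oxidizes 5-methylcytosine, also had ranges that did not overlap (log2 0.34 and 0.30). Fndc3b, Slco5a1 and the amino acid transporter Slc7a15 had log2 0.42, 0.53 and 1.19. Over all genes tested, ranges did not overlap for 40 genes higher (0.299%) and 47 lower (0.352%) on HFHS.

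In the lower direction Exosc8, a subunit of the RNA exosome that trims and degrades RNA, had the smallest p. It was at 7.86, 7.24, 6.79, 6.56 and 6.55 CPM in chow rats 205, 213, 214, 228 and 229. Its lowest, median and highest HFHS levels were 3.775, 5.15 and 5.75 CPM, so the groups did not overlap (log2 -0.48, standard error 0.10, adjusted p = 0.1295). Exosc8 overlaps Supt20h on the other strand, and whether the counting used strand is not given in the sources used here. Itih3 and Hp, both plasma proteins of the liver, had log2 -1.31 and -1.47, and rats 202, 209 and 225 with low hepatocyte genes were also the lowest for both. With the hepatocyte covariate they were at log2 -0.53 and -0.56. Both belong to the list whose mean level is that covariate, so a smaller difference is partly built in.

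Mmd, Tmem60 and Fcrl1, the last an Fc receptor-like gene of B cells, had log2 -0.39, -0.23 and -0.55 with no overlap between the groups. Dguok, a mitochondrial enzyme that phosphorylates deoxyguanosine, had log2 -0.25. Hdac11, a histone deacetylase, had log2 -0.46, Smc4, a condensin subunit, -0.54, and Med28, a Mediator subunit, -0.22. Ppia (cyclophilin A) and the initiation factor Eif1ax had log2 -0.31 and -0.23. Both have processed copies in the genome that could share reads, and their values are uncertain for that reason. Adam11 (log2 -0.63) overlaps an unnamed gene model on the other strand whose level it followed closely. None of the 15 genes with the smallest p that were lower passed in edgeR (adjusted p = 0.1295 to 0.603). DESeq2 on all rats called Exosc8 (adjusted p = 0.00819) and Itih3 (0.0258), DESeq2 on the females alone called Exosc8 (0.0417), and limma-voom called Itih3 and Hp (both 0.0371).

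**Figure D3:**
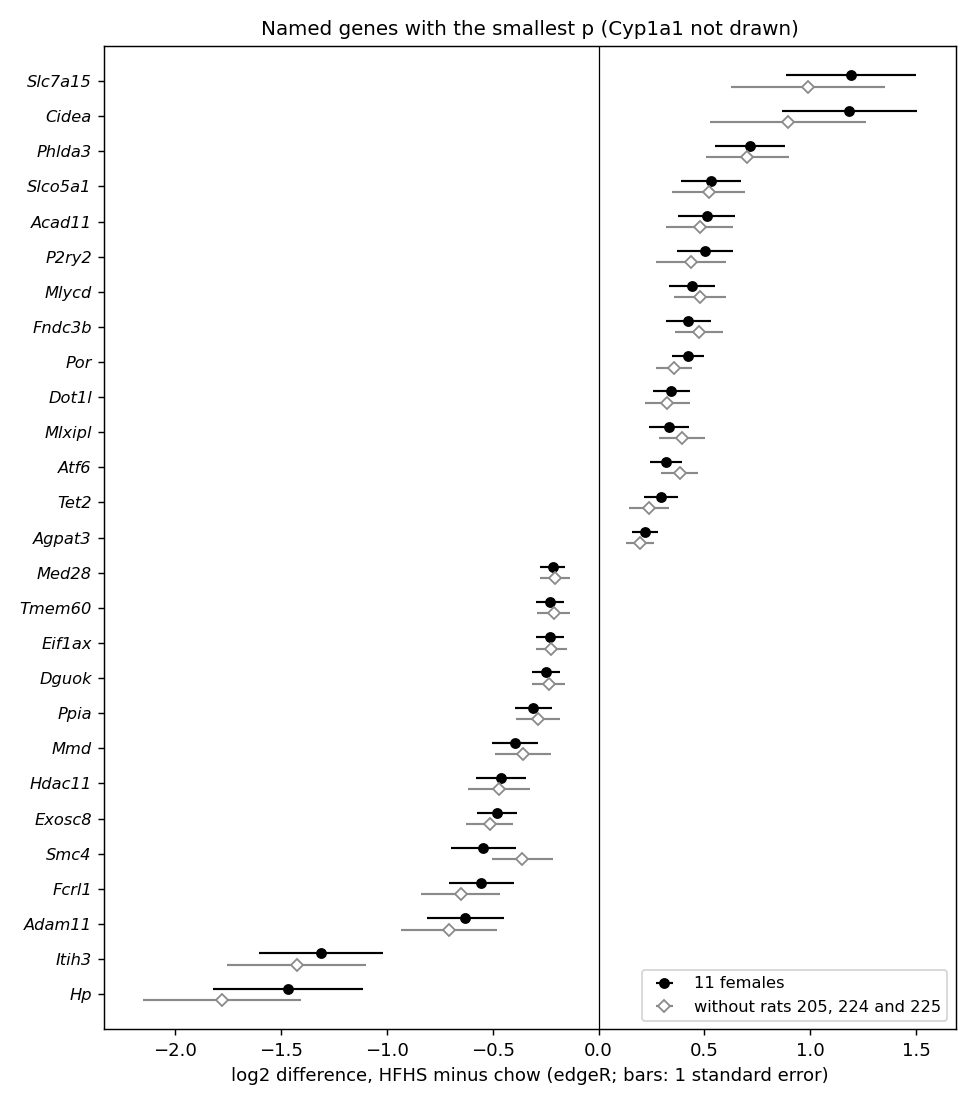
Fitted log2 difference between HFHS and chow (edgeR) for the named higher and lower genes with the smallest p besides Cyp1a1; filled circles are all 11 females, open diamonds the 8 rats without 205, 224 and 225, and bars 1 standard error. All genes drawn keep their direction without the 3 rats, from Slc7a15 at 1.19 and 0.99 to Hp at -1.47 and -1.78.

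Without rats 205, 224 and 225, 13395 genes were tested in the remaining 4 chow and 4 HFHS rats with the males. There were 2 calls (0.0149%), Cyp1a1 as the 1 higher gene (0.00747%) and Dpt as the 1 lower gene (0.00747%). Dpt encodes dermatopontin, a small protein of the collagen matrix. It was at 47.6, 40.5, 45.4 and 46.5 CPM in chow rats 213, 214, 228 and 229 and at 27.35, 32.4, 29.8 and 30.7 in HFHS rats 201, 202, 209 and 210 (log2 -0.59, adjusted p = 0.00922). The 3 rats with conflicting labels had the opposite order, 26.3 CPM in rat 205 and 41.5 and 42.5 in rats 224 and 225, and with them Dpt did not pass (log2 -0.28, adjusted p = 0.709). Pfdn6, a prefoldin chaperone subunit, behaved alike in part, with log2 -0.40 without the 3 rats and -0.25 with them. Nrip1, a corepressor of nuclear receptors that restrains oxidative genes in muscle, was at 11.1 to 12.2 CPM in the 4 other chow rats and at 30.0 in rat 205. On HFHS its lowest, median and highest levels were 14.1, 17.4 and 33.5 CPM, the lowest being rat 224. Its log2 was 0.37 in all 11 females and 0.93 without the 3 rats (adjusted p = 0.772 and 0.0868). Zc3h12c, a regulatory RNase of inflammation, and Atp2b1, a plasma membrane calcium pump, had log2 1.00 and 0.38 without the 3 rats and 0.44 and 0.21 with them.

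Unadjusted p values under 0.05 were more numerous without the 3 rats, 653 genes higher (4.87%) and 637 lower (4.76%), although fewer rats were compared. Of these, 515 also had such a p in all 11 females, all 515 with the same sign. The 8 rats are part of the 11 and the males are in both fits, so this agreement is not an independent check. When the titles set the diets, 1052 genes were higher (7.87%) and 756 lower (5.66%) at that p, and 2 passed after adjustment (0.0150%), Nrip1 higher (log2 0.90, adjusted p = 0.0494) and Dpt lower (log2 -0.59, adjusted p = 0.000512). Cyp1a1 counts thus fell in with the column codes and Dpt with the titles, and which label of the 3 rats is right cannot be told from the files used here.

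Genes of fatty acid oxidation and PPAR targets leaned to HFHS. Of 34 tested members 0 passed after adjustment. At an unadjusted p under 0.05, 10 were higher (29.4%, against 2.97% of all genes) and 0 lower, and 32 of 34 had a log2 above 0, as had 49.6% of all genes. The median log2 was 0.18. Besides Mlycd these were led by Crat, the carnitine acetyltransferase that buffers acetyl-CoA, Etfdh, which passes electrons from fatty acid oxidation to ubiquinone, and Ech1 and Hadha, enzymes of the oxidation cycle. Crat averaged 641.5 ± 51.9 CPM on chow and 744 ± 43.0 on HFHS (log2 0.21, adjusted p = 0.603). Etfdh was at 119, 132, 150, 163.9 and 136.5 CPM in the chow rats, and its lowest, median and highest levels on HFHS were 163.9, 173 and 176 (log2 0.29, adjusted p = 0.603), so that chow rat 228 and HFHS rat 202 were level to 4 digits. Ech1 and Hadha had log2 0.26 and 0.23, and for both the groups did not overlap. In all of Etfdh, Ech1 and Hadha rat 205 was the lowest of the 11 females.

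The lean was smaller without rat 205. The mean log2 level of the 34 genes, relative to the 11 females, was -0.403 in rat 205, -0.131 to 0.111 in the other 4 chow rats and 0.028 to 0.167 on HFHS, so the groups overlapped through chow rat 214. Without rat 205, the library with few slow fiber transcripts, the median log2 was 0.11 with 7 of 34 higher at an unadjusted p under 0.05 (20.6%, against 3.70% of all genes) and 0 lower (against 3.62%). Without the 3 rats it was 0.09 with 5 of 34 (against 4.87%), and with the hepatocyte covariate 0.15 with 5 of 34 (against 2.18%).

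Lipid droplet and triglyceride genes were the 1 list of 52 in which the mean level of all 6 HFHS rats lay above that of all 5 chow rats. Their mean log2 level was 0.065 to 0.154 on HFHS, and -0.369 in rat 205 and -0.132 to -0.021 in the other chow rats. Of 21 tested members, 10 were higher at an unadjusted p under 0.05 (47.6%, against 2.97% of all genes) and 1 lower (4.76%, against 3.99%). Their median log2 was 0.23. After adjustment 0 passed in edgeR, and Cidea passed in DESeq2 on the females alone. Lipe, the hormone-sensitive lipase, was at 30.05, 36.8, 39.1, 33.5 and 46.9 CPM in the chow rats, and at 39.98, 50.6 and 63.0 (lowest, median, highest) on HFHS. Its ranges overlapped (log2 0.44, adjusted p = 0.603), and it shares its place with a gene model on the other strand that moved with it. Dgat1, which makes triglyceride, had log2 0.23, and Plin4, a droplet coat protein counted among adipocyte markers, averaged 243 ± 48.2 and 313 ± 40.3 CPM (log2 0.37). The 1 lower member was Pnpla3, a lipase and acyltransferase under lipogenic control, with log2 -0.67. The list changed little without rat 205 (median 0.22, 8 higher and 1 lower, against 3.70% and 3.62% of all genes). Without the 3 rats the median was 0.19, with 8 higher and 1 lower (against 4.87% and 4.76%). With the hepatocyte covariate 4 were higher and 0 lower (against 2.18% and 2.38%), with a median of 0.21.

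Among 15 genes of fatty acid uptake, 3 were higher (20%, against 2.97% of all genes) and 1 lower (6.67%, against 3.99%) at an unadjusted p under 0.05, with a median log2 of 0.08. There were 1 and 0 without the 3 rats (against 4.87% and 4.76% of all genes, median 0.15). Without rat 205 there were 2 and 0 (against 3.70% and 3.62%, median 0.19). With the hepatocyte covariate there were 0 and 0 (against 2.18% and 2.38%). The higher members were Gpihbp1, which holds lipoprotein lipase on capillary walls (7.46 ± 0.859 and 10.4 ± 2.16 CPM, log2 0.48), the fatty acid transporter Slc27a4 (log2 0.21) and the long-chain acyl-CoA synthetase Acsl1 (log2 0.30). The lower one was another synthetase, Acsl6 (log2 -0.26). Slc27a1, the main fatty acid transport protein of muscle, had log2 0.63 with a standard error of 0.32. The marker sums of adipocytes overlapped, 2490 to 4443 CPM on chow (median 3135) and 3068 to 4659 on HFHS (median 3601). Of 13 tested adipocyte markers 7 had a log2 above 0, with a median of 0.01, and -0.32 without the 3 rats. At an unadjusted p under 0.05 Lipe and Plin4 were higher (15.4%, against 2.97% of all genes) and Thrsp lower (7.69%, against 3.99%). Adipoq and Lep, the hormones that define fat cells, had log2 -0.23 and -0.32.

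**Figure D4:**
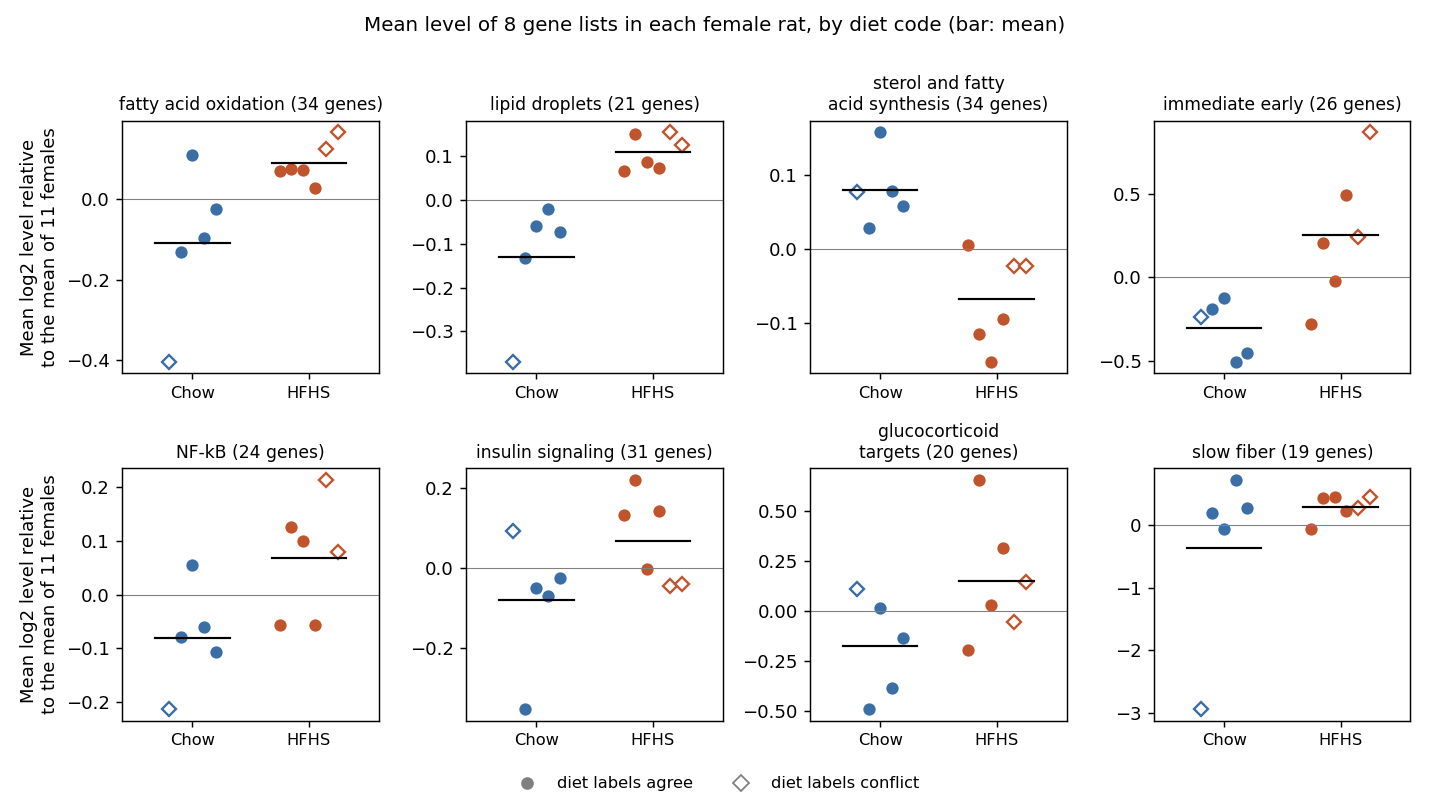
Mean log2 level of the members of 8 gene lists in each female rat, relative to the mean of the 11 females; each point is 1 rat, the bar is the group mean, and open diamonds mark the 3 rats whose diet labels conflict. All 6 HFHS rats lie above the chow rats for lipid droplet genes and below them for sterol and fatty acid synthesis, and rat 205 is lowest for fatty acid oxidation (-0.403) and slow fiber genes (-2.94).

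Sterol and fatty acid synthesis genes lay on the other side. This was the 1 list of 52 in which all 6 HFHS rats were below all 5 chow rats in mean level (-0.152 to 0.006 against 0.029 to 0.158). Of 34 tested members 0 passed, while 7 were lower at an unadjusted p under 0.05 (20.6%, against 3.99% of all genes) and 1 was higher, with a median log2 of -0.08. Scd, the stearoyl-CoA desaturase that makes monounsaturated fatty acids, was at 5.03, 22.4, 21.9, 7.21 and 13.1 CPM in chow rats 205, 213, 214, 228 and 229. On HFHS its lowest, median and highest levels were 1.59, 4.48 and 8.03, and the ranges overlapped (log2 -1.56, standard error 0.54, adjusted p = 0.62). Thrsp, a lipogenic regulator, had log2 -0.92 and the fatty acid elongase Elovl5 -0.22. The mean level of this list followed the hepatocyte level over the 11 females (r = 0.786, given as a description), and liver expresses these genes strongly. With the hepatocyte covariate 1 member was lower (against 2.38% of all genes) and 1 higher. Without the 3 rats 6 were lower (against 4.76% of all genes) and 1 higher.

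Insulin signaling genes showed more when the 3 rats were left out. Of 31 tested members 0 passed, and the median log2 was 0.11. At an unadjusted p under 0.05, 3 were higher (9.68%, against 2.97% of all genes) and 0 lower. These were Gsk3b, the kinase that inhibits glycogen synthase, Rptor, the scaffold of mTOR complex 1, and Tsc1, which restrains that complex (log2 0.40, 0.22 and 0.32). Insr, the insulin receptor, had log2 0.16 and Inpp5k, a phosphatase that counters insulin signals, 0.15. In the 8 rats with agreeing labels the median was 0.17 with 13 of 31 higher and 1 lower (against 4.87% and 4.76% of all genes). Without rat 205 alone 9 were higher (29%, against 3.70% of all genes). With the hepatocyte covariate the median was 0.12, with 1 higher (against 2.18% of all genes) and 0 lower. The chow rat with the lowest mean level of this list was 213 (-0.353), and the next chow rat was at -0.071.

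Of 24 tested NF-kB genes 0 passed in edgeR, and 9 were higher (37.5%, against 2.97% of all genes) and 0 lower at an unadjusted p under 0.05, with a median log2 of 0.09. Nfkbiz, a nuclear regulator of NF-kB, was at 0.771, 1.196, 1.62, 1.12 and 1.56 CPM in chow rats 205, 213, 214, 228 and 229 and at 1.81, 2.23 and 2.47 (lowest, median, highest) on HFHS. Its groups did not overlap (log2 0.78, standard error 0.24, adjusted p = 0.603). Il1r1, the interleukin 1 receptor, had log2 0.39, the kinase subunit Ikbkg 0.36, the NF-kB subunit Rel 0.49 and the chemokine Ccl2 0.74. The median was 0.04 without the 3 rats, with 4 higher (against 4.87% of all genes) and 0 lower. Without rat 205 alone 5 were higher (20.8%, against 3.70% of all genes). Of 19 tested macrophage and leukocyte markers 0 were higher or lower at that p. Yet 15 had a log2 above 0 (78.9%, against 49.6% of all genes), with a median of 0.14. That median was -0.04 without rat 205 alone and -0.05 without the 3 rats. Their sums overlapped (117.7 to 248.5 CPM on chow, the lowest being rat 205, and 203.3 to 284.1 on HFHS). Cd68, the macrophage gene with the smallest p, was 1 of the 4 below 0 (log2 -0.33).

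Immediate early genes, which cells switch on within minutes of a stimulus or of handling, varied among the HFHS rats. Of 26 tested members 7 were higher (26.9%, against 2.97% of all genes) and 0 lower at an unadjusted p under 0.05, with a median log2 of 0.63, and 0 passed. Nr4a2, a nuclear receptor of this class, was at 6.66, 4.27, 4.42, 1.91 and 3.63 CPM in chow rats 205, 213, 214, 228 and 229. On HFHS it was at 1.96, 21.7, 4.70, 30.9, 5.82 and 65.3 CPM in rats 201, 202, 209, 210, 224 and 225. Only rats 202, 210 and 225 stood above the chow range (log2 2.37, standard error 0.85). Atf3, a stress-induced transcription factor, ran from 7.06 to 17.75 CPM on chow and reached 103 in rat 225 (log2 1.44). Zfp36, which destabilizes inflammatory mRNA, averaged 35.7 ± 14.5 and 61.8 ± 15.9 CPM (log2 0.79, adjusted p = 0.606). Without the 3 rats, rat 225 among them, the median log2 was 0.32 with 3 higher (against 4.87% of all genes). Without rat 205 alone it was 0.57 with 4 higher (15.4%, against 3.70% of all genes).

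Glucocorticoid receptor targets had a median log2 of 0.32. At an unadjusted p under 0.05, 3 of 20 were higher (15%, against 2.97% of all genes) and 0 lower. These were Sgk1, a kinase that acts on ion transport and growth (22.9 ± 6.35 and 33.9 ± 6.04 CPM, log2 0.56), the repressor Bcl6 (log2 0.39) and the metallothionein Mt2A (log2 0.74). The median was 0.51 without the 3 rats, with 6 higher (against 4.87% of all genes), and 0 passed with or without them. With the hepatocyte covariate the median was 0.16, with 0 higher (against 2.18% of all genes) and 0 lower. Of 30 genes of the unfolded protein and integrated stress responses, 3 were higher at that p (10%, against 2.97% of all genes) and 0 lower. The 3 were Atf6, Atf3 and Herpud1 (log2 0.15), and the median log2 of the list was 0.09. Among 18 p53 targets 1 was higher (5.56%, against 2.97% of all genes) and 1 lower (5.56%, against 3.99%). The higher one was Phlda3. The lower one was the death receptor Fas, whose groups did not overlap (2.55 ± 0.242 and 1.87 ± 0.427 CPM, log2 -0.43). The median log2 over the p53 targets was 0.002, so as a list they leaned neither way. Over the 11 females the mean levels of these 3 lists ran opposite to the hepatocyte level, with r = -0.664 for glucocorticoid targets, -0.665 for the unfolded protein response and -0.71 for p53 targets (descriptions).

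**Figure D5:**
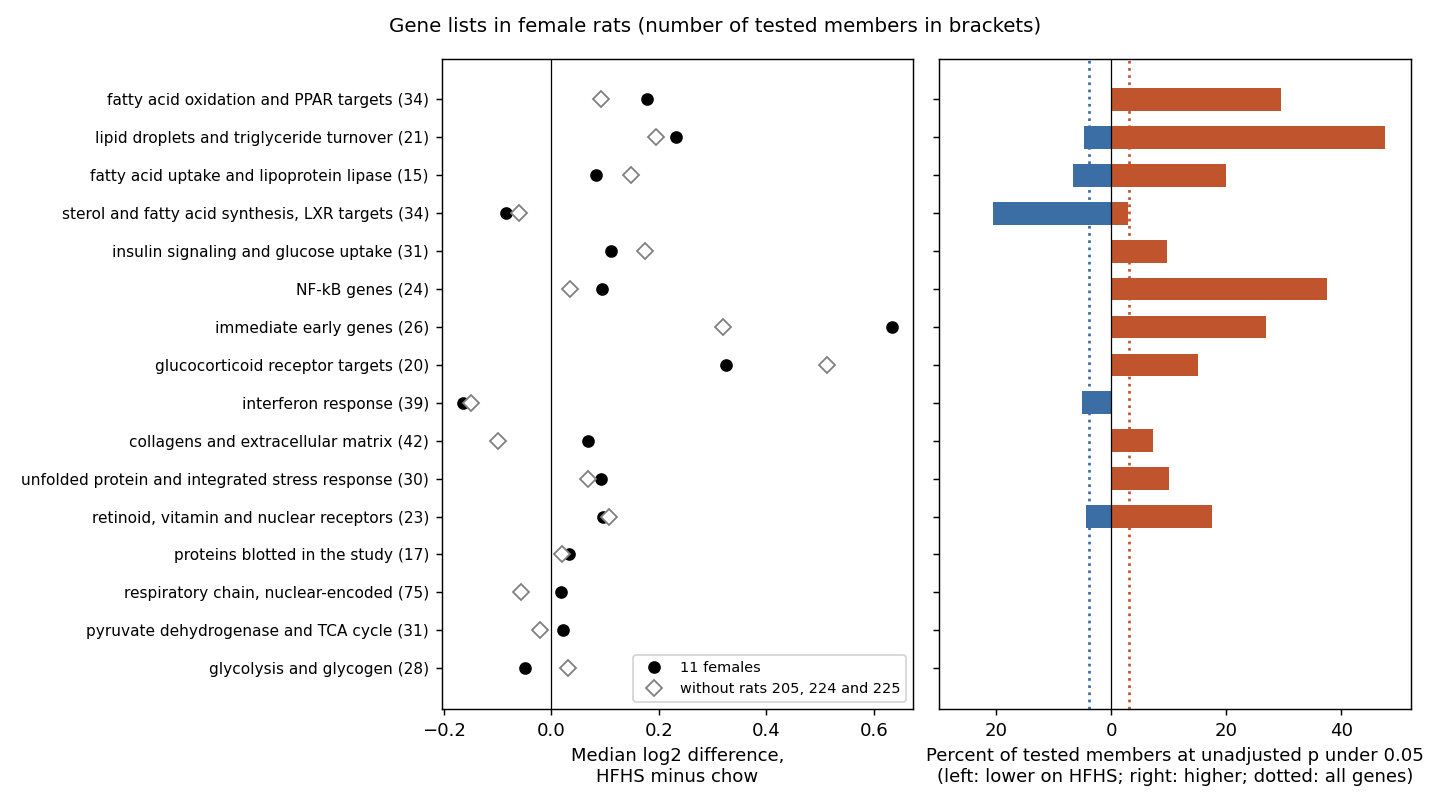
Left, median log2 difference (HFHS minus chow) over the tested members of 16 gene lists, for 11 females (filled circles) and without rats 205, 224 and 225 (open diamonds). Right, percent of tested members at an unadjusted p under 0.05, lower on HFHS to the left and higher to the right, with dotted lines at the share of all genes (3.99% and 2.97%); lipid droplet genes reach 47.6% higher, sterol and fatty acid synthesis 20.6% lower, and the respiratory chain, the tricarboxylic acid cycle, glycolysis and the blotted proteins 0.

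Nuclear receptors and their cofactors had a median log2 of 0.10, and 0 of 23 passed. At an unadjusted p under 0.05, 4 were higher (17.4%, against 2.97% of all genes) and 1 lower (4.35%, against 3.99%). Med12, a subunit of the Mediator complex that couples receptors to RNA polymerase, was at 32.3 to 36.1 CPM on chow and 36.6 to 41.4 on HFHS, with no overlap (log2 0.20, adjusted p = 0.603). The acetyltransferase Crebbp (log2 0.17) and the orphan receptor Nr2c2 (0.47) were among the others. The lower member, Rbp4, the retinol carrier that liver secretes, had log2 -0.95 and -0.21 with the hepatocyte covariate. In the interferon response 0 of 39 members were higher at that p and 2 lower (5.13%, against 3.99% of all genes). The 2 were the ubiquitin-like modifier Isg15 (log2 -0.56) and Herc6 (log2 -0.49), and the median log2 was -0.16. Mx2 and Ifit3, antiviral genes of that list, had log2 -0.61 and -0.50, and single rats reached 14.9 CPM (rat 213, chow) and 5.04 CPM (rat 209, HFHS).

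Collagens and other matrix genes turned with the choice of rats. In all 11 females 3 of 42 members were higher at an unadjusted p under 0.05 (7.14%, against 2.97% of all genes) and 0 lower. Their median log2 was 0.07. Without the 3 rats 0 were higher and 4 lower (against 4.76% of all genes), with a median of -0.10. The 3 higher genes were Tnxb, Thbs1 and Loxl1. Tnxb has more than 1 entry in the counts, and its result is that of 1 entry at 0.720 CPM on chow and 1.23 on HFHS. Col15a1 was at log2 -0.31 in all females and -0.57 without the 3 rats. Rat 205 had the lowest mean level of this list (-0.480), and without that rat alone the median was -0.01.

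Among lists of cell types other than muscle fibers, hepatocyte genes had the widest spread over the rats. All 36 hepatocyte genes had a log2 below 0, with a median of -1.40, and 20 were lower at an unadjusted p under 0.05 (55.6%, against 3.99% of all genes), with 0 passing in edgeR. In limma-voom Itih3 and Hp were among members that passed (adjusted p = 0.0371 for both). Alb was at 157, 309, 311, 145 and 289 CPM in chow rats 205, 213, 214, 228 and 229. On HFHS it was at 303, 1.13, 1.79, 156, 168 and 20.02 CPM in rats 201, 202, 209, 210, 224 and 225. The chow and 3 of the HFHS rats thus had similar levels, and the diet difference came from rats 202, 209 and 225 (log2 -1.16, standard error 0.95, adjusted p = 0.83). Gastrocnemius muscle is not known as a source of albumin, and where these transcripts came from was not tested. In the males the mean log2 CPM over the 36 genes was -2.45 to -0.325, below the -0.282 to 2.49 of the females other than rats 202 and 209 (-2.17 and -2.11).

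Schwann cell and nerve markers ran the other way. All 11 tested members had a log2 above 0, with a median of 0.81. Of these, 1 was higher at an unadjusted p under 0.05 (9.09%, against 2.97% of all genes). Their sum was 93.7 to 194.6 CPM on chow and 102.6 to 409.2 on HFHS, where rats 201, 202, 209 and 225 lay above every chow rat. Mbp and Prx, proteins of myelin, and Pmp22, another, had log2 1.16, 0.81 and 0.74 with standard errors of 0.65, 0.49 and 0.44. Over the 11 females the mean level of this list was opposite to the hepatocyte level (r = -0.747, a description), and with that level as a covariate the median log2 was 0.44. Of 19 denervation and neuromuscular junction genes, 2 were higher (against 2.97% of all genes) and 1 lower (against 3.99%) at that p. The mean level of this list was lowest in rat 205 (-0.719). Without that rat 3 were higher (against 3.70% of all genes) and 0 lower (against 3.62%). Dok7, an adaptor that activates the MuSK receptor at the junction, was at 25.0 to 27.8 CPM on chow and 28.6 to 38.3 on HFHS without overlap (log2 0.31, adjusted p = 0.603), and the histone deacetylases Hdac4 and Hdac9 had log2 0.33 and -0.33. Ache, the esterase of the junction, had log2 -0.22.

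Markers of red cells were higher in several HFHS rats. Hbb was at 9.43 CPM in rat 205, 39.2 to 53.6 in the other chow rats and 36.3 to 119 on HFHS, highest in rats 224 and 225 (log2 0.94, and 0.18 without the 3 rats). The sum of the 4 tested erythrocyte genes was 15.97 to 75.7 CPM on chow and 57.3 to 158.6 on HFHS. Slow fiber genes had a median log2 of 0.24 with 17 of 19 above 0 in all 11 females, but -0.003 without rat 205 and -0.08 without the 3 rats. The 1 member at an unadjusted p under 0.05, Pln, the inhibitor of the calcium pump, was lower (log2 -0.28). Fast fiber genes had a median log2 of -0.07 in all 11 females, with 0 of 16 at that p in either direction. Their median was 0.009 without rat 205 and 0.05 without the 3 rats.

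In energy conversion, of 75 nuclear-encoded respiratory chain genes, 31 of pyruvate dehydrogenase and the tricarboxylic acid cycle and 28 of glycolysis and glycogen, 0 had an unadjusted p under 0.05, against 6.96% of all genes in either direction. Their median log2 was 0.02, 0.02 and -0.05. Without the 3 rats 2 of the 75 respiratory chain genes were lower at that p (against 4.76% of all genes). In that fit 1 of the 31 cycle genes was higher (against 4.87%). Without rat 205 alone 3 cycle genes were higher (9.68%, against 3.70% of all genes) and 1 respiratory chain gene lower (1.33%, against 3.62%). Of the 17 genes that encode proteins blotted in the study 0 had such a p, with log2 from -0.05 to 0.55 and a median of 0.03. The respiratory chain subunits among them were Ndufb8 (log2 -0.02), Sdhb (0.10), Uqcrc2 (-0.01) and Atp5a1 (0.01), with standard errors of 0.06 to 0.103. Ppargc1a, the coactivator of mitochondrial biogenesis, averaged 9.75 ± 0.412 CPM on chow and 9.96 ± 1.64 on HFHS (log2 0.03). The AMPK subunit Prkaa2 and the stress sensor Sesn2 had log2 0.31 and 0.18, and Prkaa2 was at 0.57 without the 3 rats (adjusted p = 0.412). Mfn2, a fusion protein of the outer mitochondrial membrane, averaged 0.170 ± 0.120 CPM on chow and 0.249 ± 0.101 on HFHS. Its log2 was 0.55 (standard error 0.46), and 1.09 without the 3 rats. The level of Mfn2 ran from 0.0197 CPM in rat 229 to 0.389 in rat 202, so low that both log2 values are uncertain. Its relative Mfn1 averaged 166 CPM on chow and 171 on HFHS. Whether the counts under the name Mfn2 capture the transcript of that gene was not tested. The fusion and fission genes Mfn1, Dnm1l and Mff had log2 0.04, 0.03 and 0.03, and Prkaa1, the other catalytic AMPK subunit, -0.05. Pink1 and Bnip3, which mark mitochondria for removal, had log2 0.03 and -0.03, the superoxide dismutase Sod2 -0.05, the nitric oxide synthase Nos3 0.06 and the deacetylase Sirt1 0.05.

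Whether the response of females differed from that of males was tested as an interaction. Of 13365 genes 0 passed in edgeR and 1 in DESeq2, and 652 (4.88%) had an unadjusted p under 0.05 in edgeR. Por averaged 31.8 and 37.0 CPM in Male Chow and Male HFHS rats, and the interaction did not pass (log2 0.20, standard error 0.10, adjusted p = 0.983). Exosc8 was at 5.755 and 5.81 CPM in males (adjusted p of the interaction 0.96). For the fatty acid oxidation list the median interaction was -0.01 and for lipid droplets 0.11. For the interferon response it was -0.44, with males at 2.36 and 3.63 CPM of Isg15 on chow and HFHS. Cyp1a1 was at 0.0189 CPM in Male Chow and 0.932 in Male HFHS rats (adjusted p of the interaction 0.983). These values use the male diets as labelled. The sources of the study may not agree on which males had which diet, and exchanging them turns the sign of every male difference.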

How the data were processed

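Gastrocnemius RNA of 23 Wistar rats was sequenced with poly-A selection, 1 library per rat. The authors trimmed reads with fastp, aligned them with STAR (version 2.7.6a per the submitters' processing notes) to rn6 and deposited raw read counts over the exons of merged transcripts. Whether the counting used strand is not given in the sources used here. The submitters' processing notes also name DESeq2 1.30.1. The table holds 18919 entries, of which 16 have no gene name (at most 0.000294% of counts) and were left out. Several entries share a symbol for 129 symbols, and the gene lists used the first entry of such a symbol.

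Diets were taken from the column codes. In edgeR 4.0.16 (R 4.3.3), counts were scaled by TMM, filtered with filterByExpr and fitted with 1 mean per group of sex and diet over all 23 rats. The robust quasi-likelihood test gave female HFHS minus female chow, with the Benjamini-Hochberg adjustment over 13365 genes (threshold 0.05). Standard errors are the log2 difference over the square root of F. CPM values use TMM-scaled library sizes. A mean log2 level of a list uses a prior count of 2 and is centred on the 11 females. Total counts were compared by an exact permutation test. Rats come from 1 experiment, and the p values measure the spread between rats. Intervals and floors cover counting error only.

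Genes named are those called, the 15 higher and 15 lower with the smallest p that average at least 1 CPM, the first 5 in each direction without the 3 rats, up to 5 members of each described list by p, all genes of blotted proteins, and Alb and Adipoq. Some genes that this rule names are not reported here. Members and lists were chosen with earlier results of these data known. Alternatives were RLE scaling, 2 other filters, DESeq2 1.42.0, limma-voom (limma 3.58.1), the females alone, the diets of the titles, a hepatocyte covariate, a replicate block, exchanged male diets and leaving out rats. The test was tested on simulated data. Promoter letters come from RefSeq (GRCr8).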

Additional observations from a re-analysis of the deposited data

Results flagged for a closer look

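Among 248 groups of values checked, 18 held 1 rat far from the rest of its group, and chance alone flags about 1 in 20 groups. Rat 205, whose diet labels conflict, accounted for 7 of them. Its level was 7.63 CPM for Hp (other chow rats 16.98 to 20.41), 13.51 for Smc4 (8.298 to 9.496) and 1.34 for Cd68 (2.80 to 3.16). It was 2.06 CPM for Zc3h12c (0.5102 to 0.8291) and 30.03 for Nrip1 (11.12 to 12.15). The summed levels of rat 205 were 15.97 CPM for erythrocyte markers (63.41 to 75.71) and 14.97 for mast cell and neutrophil markers (42.42 to 51.36).

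Chow rat 213 stood apart for Rptor at 27.16 CPM (other chow rats 38.50 to 42.34), Mx2 at 14.86 (6.57 to 7.23) and Sod2 at 315.4 (389.2 to 405.2). HFHS rat 225 stood apart for Atf3 at 102.8 CPM (other HFHS rats 13.53 to 45.35), Thbs1 at 16.28 (6.55 to 9.44) and Pfdn6 at 47.96 (36.13 to 39.71). HFHS rat 209 did so for Dot1l at 77.22 (60.55 to 64.18) and Ifit3 at 5.04 (1.34 to 2.71). HFHS rats 201, 202 and 210 did so once each, for Hdac4 at 8.93 (5.73 to 6.80), Cyb5b at 37.94 (44.32 to 46.98) and Nos3 at 28.71 CPM (36.73 to 39.54).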

How the results depend on the processing

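Of 2527 values of 115 named genes under an alternative, 2448 kept their direction and their side of the threshold. Only Cyp1a1 and Por passed in the main test, so staying uncalled was the likely outcome for the other genes and says little about stability. The 19 values that kept their direction but lost a call were all of Cyp1a1 and Por, most of them of Por. The main test called 2 genes higher and 0 lower. It called 1 higher with RLE scaling, with either other filter, with the hepatocyte covariate, with the diets of the titles and without the 3 rats, and 0 in the females alone. DESeq2 called 3 higher and 3 lower on all rats and 11 and 6 on the females alone, limma-voom called 3 and 10, and the title diets and the fit without the 3 rats each called 1 lower. At an unadjusted p under 0.05 there were 397 higher and 533 lower. Leaving out 1 rat gave 1 to 2 higher and 0 to 1 lower, the 1 being without chow rat 228. Without the 3 rats, DESeq2 called 9 genes in place of 2, limma-voom 3 without Cyp1a1, and the females alone 0. The interaction, 0 in the main test, gave 1 gene with DESeq2, 5 with the title diets and 7 with the male diets exchanged. The cause of these differences was not tested.

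Title numbers did not pair the rats (correlation -0.165 to -0.025 over 4 pairs), and with them as a replicate block 1 gene was called higher, 0 lower and 902 genes had an unadjusted p under 0.05.

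Several directions turned, and the cause was not tested. With the title diets the log2 was 0.048 for Smc4, -0.152 for Nr4a2, -0.018 for Bcl6, -0.023 for Ccl2, -0.395 for Atf3, -0.684 for Hbb, -0.19 for Loxl1, -0.128 for Sdhb, -0.03 for Nos3, -0.235 for Ahr, 0.001 for Sod2, -0.014 for Pink1 and 0.012 for Bnip3. With the hepatocyte covariate it was 0.733 for Cyp1a2, 0.714 for Alb, which is part of that level, and 0.09 for Cyp1b1. With that covariate it was also 0.001 for Sod2, -0.127 for Sirt1, 0.03 for Ndufb8 and 0.04 for Uqcrc2. Without the 3 rats it was -0.025 for Sdhb and -0.078 for Ahr. Pink1 was at -0.011 with the replicate block, and limma-voom gave -0.008 for Dnm1l and 0.012 for Uqcrc2. Leaving out 1 rat moved Ahr from -0.021 to 0.284, Mfn1 from -0.002 to 0.074, Prkaa1 from -0.094 to 0.016, Sirt1 from -0.009 to 0.113, Pink1 from -0.005 to 0.067 and Bnip3 from -0.073 to 0.031. It moved Dnm1l from -0.088 to 0.097, Ndufb8 from -0.061 to 0.023, Ppargc1a from -0.045 to 0.102, Atp5a1 from -0.014 to 0.047 and Uqcrc2 from -0.029 to 0.034. The alternative without rat 205 for the lists was chosen after seeing the data.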

Other observations

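In gene groups not described above 0 members passed in edgeR. At an unadjusted p under 0.05, 3 of 21 genes of amino acid and polyamine metabolism were lower (14.3%, against 3.99% of all genes). Their mean level followed the hepatocyte level (r = 0.842, a description). Also lower were 2 of 16 estrogen response genes (12.5%), 3 of 26 cell cycle genes (11.5%, with 2 higher) and 2 of 20 angiogenesis and Notch genes (10%). Of 68 mitochondrial ribosomal proteins, 54 had a log2 below 0 and 5 were lower at an unadjusted p under 0.05 (7.35%), with 0 higher and a median log2 of -0.05. Their mean level followed the hepatocyte level over the 11 females (r = 0.661, a description). Of 36 autophagy and lysosome genes 2 were higher (5.56%, against 2.97% of all genes) and 4 lower (11.1%, against 3.99%) at that p. The lower ones included Fundc1, a mitophagy receptor (log2 -0.35, adjusted p = 0.608). Cldn5, a tight junction protein of endothelium, averaged 14.7 ± 1.82 CPM on chow and 23.1 ± 6.83 on HFHS (log2 0.66, adjusted p = 0.603), while 1 of 20 endothelial and pericyte markers, Cldn5 itself, was higher at that p. Per2, a repressor of the circadian clock, had log2 0.46 (adjusted p = 0.692). These 3 genes were chosen as the members of their lists with the smallest p, after their values were seen.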
